A study of Mus musculus with 8 samples.

Results

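The transcripts described here encode the nuclear subunits of mitochondrial respiratory complexes I, II, III and IV and of ATP synthase, which is complex V. Members were taken by name: genes called Nduf followed by a, b, c, s or v and a number, Sdha to Sdhd, those starting with Uqcr, Cox4 to Cox8 genes and those starting with Atp5, without names marked as pseudogenes. In the table of 28295 genes 87 names matched, and the 84 with a mean of at least 0.5 FPKM over the 8 libraries were kept (FPKM, fragments per kilobase of gene and 1000000 mapped fragments). Of these, 39 belong by name to complex I, 4 to complex II, 8 to complex III, 16 to complex IV and 17 to complex V. The others were Cox6c2, Cox7b2 and Cox8c, at mean levels of 0.401, 0.0186 and 0.122 FPKM, and the lowest kept were Cox6a2 at 0.575 FPKM and Ndufs6b at 0.642 FPKM. Ndufb4c and Ndufs6b are annotated as processed pseudogenes, so 82 members are protein coding.

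Complexes I to IV pass electrons from NADH and succinate to oxygen and, apart from complex II, pump protons across the inner mitochondrial membrane, and complex V lets the protons flow back to make ATP. Most subunits are encoded in the nucleus and imported, and a small set is encoded by mitochondrial DNA. Both genomes therefore have to supply each complex other than II. White adipocytes hold few mitochondria beside brown ones, but use them to make the citrate and glycerol phosphate for lipid storage and to fuel lipid cycling.

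RNA came from epididymal white fat of male mice that had eaten a Western diet for 8 weeks and were fasted for 6 h. The KO-labelled group (libraries KO1 to KO4) is given as AdipoQ-Cre;Cul3-flox/flox, in which the Adipoq promoter drives Cre in adipocytes but not in the other cells of fat, and the WT group (WT1 to WT4) as Cul3-flox/flox with no Cre named, so both carry floxed alleles. Ages are not given in the labels, and the labels do not say which animal each library came from, so p-values measure the spread between these libraries. Cul3, the scaffold of cullin 3 ubiquitin ligases, was not lower in the KO-labelled libraries. Its level was 10.6, 11.2, 13.2 and 12.99 FPKM in KO1 to KO4 and 11.4, 9.66, 12.4 and 11.5 FPKM in WT1 to WT4 (log2 fold change 0.09 ± 0.10, limma adjusted p = 0.520; exact two-sided permutation test, p = 0.429). The table gives whole genes and cannot show whether particular exons are missing, so the groups go by their labels, on which every direction depends. Recovered reads of listed genes came to 15.2 to 18.7 M per KO-labelled library and 17.7 to 19.7 M per WT library (M, 1000000).

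Nuclear subunit transcripts were lower in the KO-labelled fat. Of the 84 members 44 fell and 0 rose at an adjusted p under 0.05 (limma on log2(FPKM + 0.5), Benjamini-Hochberg over the 14400 genes tested), against 18.6% of all genes tested that fell and 11.7% that rose. The members that fell make up 52.4%. Whatever their p, 81 log2 fold changes lay below 0 and 3 above it (Atp5s and Cox6b2 at 0.10, Atp5g2 at 0.03). The median log2 fold change was -0.47, from -2.19 for Cox8b to 0.10, while that of all genes tested was -0.02. In 34 members every KO-labelled value lay below every WT value (19.1% of all genes) and in 0 members above (12.1% of all genes). Summed over members, the level was 2550 ± 334 FPKM in KO-labelled fat and 3531 ± 561 FPKM in WT (SD, n = 4 each), from 2193 to 2856 and from 2946 to 4162 FPKM. On the deposited scale these sums do not overlap. The FPKM of all listed genes came to 175006 to 192807 in KO-labelled libraries and 211717 to 234141 in WT. Taken as a share of these totals, the member sums of the groups overlap. Since whole tissue was measured, fewer adipocytes and less of these transcripts per cell cannot be told apart.

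**Figure D1:**
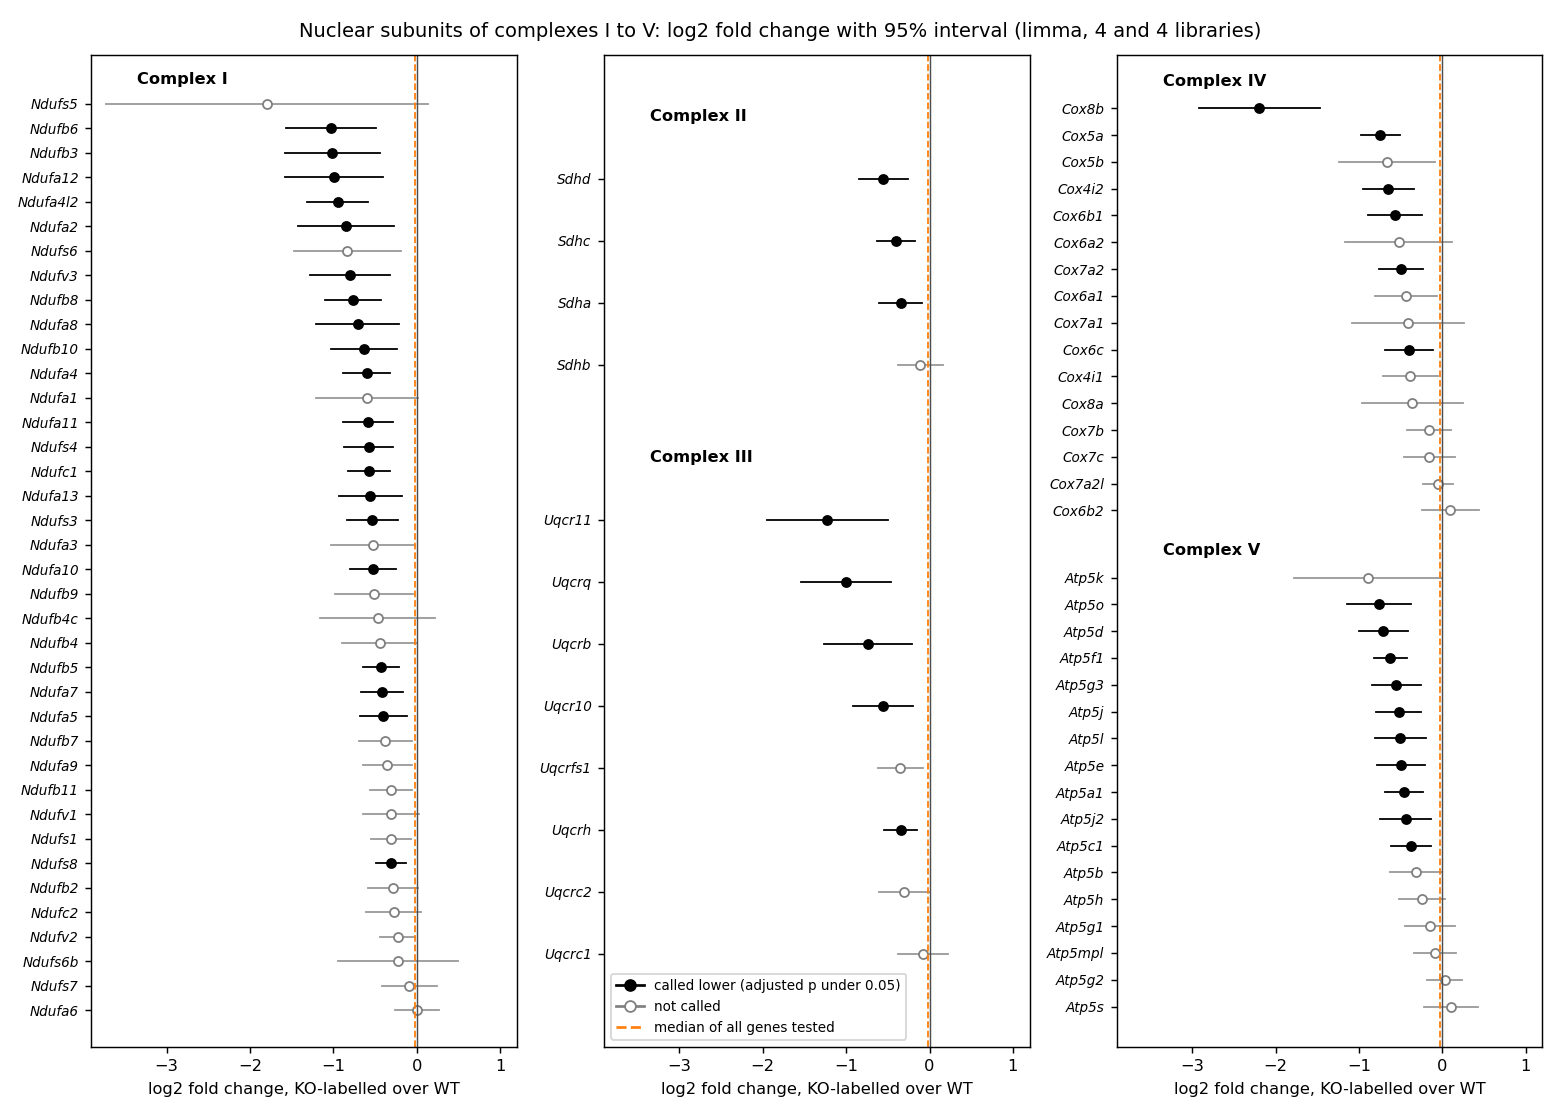
Log2 fold change of 83 members, KO-labelled over WT, with 95% intervals from limma (4 libraries a group), by complex; filled points passed the test and open points did not, and the dashed line is the median of all genes tested (-0.02). Of the points 80 lie left of 0, and the 44 filled ones are spread over all 5 complexes.

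Promoter sequences of members were read from RefSeq (GRCm38.p6, 250 bases before to 50 after the start), which held 67 of the 84. NRF1, the nuclear respiratory factor, is a textbook regulator of these genes and not the NRF2 factor that cullin 3 ligases control. Its core letters (GCGC on each side of an A and then any base, read on both strands) stood in 16 of 67 member promoters (23.9%), against 10.2% of the 10253 promoters of genes tested. The 5 stretches shown set members that fell beside members that were not called, as the 150 bases before the start read 5′ to 3′ toward the gene, with the NRF1 matches in capitals. Sdhd and Sdha are both complex II genes with matches, Ndufa11 fell, and Cox6a1 and Atp5g2 were not called.

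Sdhd: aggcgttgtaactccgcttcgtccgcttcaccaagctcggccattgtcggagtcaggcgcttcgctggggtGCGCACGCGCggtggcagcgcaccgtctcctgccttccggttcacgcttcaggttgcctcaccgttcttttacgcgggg
Sdha: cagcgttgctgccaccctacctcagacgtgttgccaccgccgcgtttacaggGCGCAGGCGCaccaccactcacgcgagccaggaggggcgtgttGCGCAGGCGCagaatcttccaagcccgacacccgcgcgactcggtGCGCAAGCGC
Ndufa11: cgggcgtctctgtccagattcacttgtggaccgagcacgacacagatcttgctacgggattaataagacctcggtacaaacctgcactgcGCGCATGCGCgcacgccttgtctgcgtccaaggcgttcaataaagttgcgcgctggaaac
Cox6a1: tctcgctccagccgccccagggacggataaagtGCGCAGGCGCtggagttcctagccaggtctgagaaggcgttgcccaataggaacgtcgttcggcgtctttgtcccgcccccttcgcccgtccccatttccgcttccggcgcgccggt
Atp5g2: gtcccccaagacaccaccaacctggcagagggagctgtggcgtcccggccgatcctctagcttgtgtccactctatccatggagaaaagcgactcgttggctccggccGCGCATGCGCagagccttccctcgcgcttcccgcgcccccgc

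They lie at chr9:50603850-50603999 on the minus strand (Sdhd), chr13:74350241-74350390 on the minus strand (Sdha), chr17:56717612-56717761 on the plus strand (Ndufa11), chr5:115348959-115349108 on the minus strand (Cox6a1) and chr15:102671048-102671197 on the minus strand (Atp5g2). Sdha carries 3 matches in this stretch and the others 1 each. The NRF1 letters stood in 7 of 36 promoters of members that fell (19.4%) and in 9 of 31 of those not called (29.0%). Of the other motifs, on both strands, AANATGGCG (YY1) stood in 8 member promoters (11.9%, against 5.23% of all), CCGGAAG (GABPA, an ETS factor) in 15 (22.4%, against 17.8%) and TCAAGGTCA (the estrogen-related receptor half-site) in 2, those of Sdhd and Atp5g3 (2.99%, against 0.254%). GGGCGG (SP1) stood in 27 (40.3%, against 63.3%). The core of the antioxidant response element, which NRF2 binds, stood in 6 (8.96%, against 10.6%), and so did TATAAA, the core promoter element that positions the polymerase (8.96%, against 7.49%). NRF1 and SP1 matches can overlap in GC-rich sequence, and members had a median of 57.3% GC in this window, against 60.7% of all. A match is a description of the letters and not a binding site.

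Complex I, the NADH dehydrogenase, has core subunits that carry out the electron transfer and accessory subunits that surround and stabilise them. Of the 28 accessory subunits 16 fell and 0 rose (median log2 fold change -0.56). Ndufb8, of the membrane arm, had 8.59, 8.73, 6.86 and 8.18 FPKM in KO1 to KO4, against 16.1, 17.4, 12.1 and 11.2 FPKM in WT1 to WT4 (-0.76 ± 0.15, adjusted p = 0.0060). Ndufc1 had 10.1, 9.93, 11.6 and 13.7 FPKM in the KO-labelled libraries and 18.8, 17.2, 15.99 and 15.9 FPKM in WT (-0.57 ± 0.11, adjusted p = 0.00608). Ndufb5 had 5.15, 5.97, 5.51 and 6.91 FPKM in the KO-labelled libraries and 8.46, 8.32, 7.97 and 7.46 FPKM in WT (-0.43 ± 0.09, adjusted p = 0.0103). In none of these did the groups overlap, and WT4 was the lowest WT library in each. The most abundant accessory subunit, Ndufa2, had 57.7, 36.7, 27.1 and 33.0 FPKM in the KO-labelled libraries and 81.5, 85.5, 50.3 and 58.7 FPKM in WT (-0.85 ± 0.25, adjusted p = 0.0339), and here KO1 lay above WT3. Further falls ranged from -0.40 for Ndufa5 to -1.03 for Ndufb6, with Ndufb3 at -1.01 and Ndufa12 at -0.99, and they took in Ndufs4, a site of human complex I deficiency mutations, at -0.58. The 12 that did not pass ran from -0.000513 for Ndufa6 to -1.80 for Ndufs5.

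Of the 7 core subunits of complex I 2 fell and 0 rose, with a median of -0.30, and the difference from the accessory subunits was not tested. Ndufs3, an iron-sulfur arm subunit, had 16.1, 14.4, 16.04 and 19.1 FPKM in KO1 to KO4, against 26.7, 28.7, 20.5 and 20.7 FPKM in WT1 to WT4 (-0.53 ± 0.13, adjusted p = 0.0181). Ndufs8, which binds iron-sulfur clusters, had 27.5, 28.9, 27.0 and 28.8 FPKM in the KO-labelled libraries and 36.1, 38.1, 33.0 and 32.1 FPKM in WT (-0.30 ± 0.08, adjusted p = 0.0202). In both the groups stayed apart, and the KO-labelled values of Ndufs8 lay within 2 FPKM of each other. Ndufs1, the largest subunit, had 6.60, 7.40, 7.83 and 9.23 FPKM in KO-labelled libraries and 9.76, 9.16, 10.7 and 9.10 FPKM in WT, which overlap (-0.31 ± 0.11, adjusted p = 0.0539). Other core members were Ndufv1 (-0.31), Ndufv2 (-0.23) and Ndufs7 (-0.09), and the pseudogenes Ndufb4c and Ndufs6b had -0.47 and -0.23 with no call.

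Complex II, succinate dehydrogenase, also serves the citric acid cycle and is built from nuclear genes alone. Its membrane anchors had the largest falls, and the differences among its genes were not tested. Sdhd had 45.4, 34.96, 34.7 and 40.1 FPKM in KO1 to KO4, against 56.8, 69.3, 51.2 and 51.7 FPKM in WT1 to WT4 (-0.55 ± 0.13, adjusted p = 0.0128). Sdhc had 18.8, 19.4, 20.2 and 23.6 FPKM in the KO-labelled libraries and 28.9, 29.2, 27.5 and 23.6 FPKM in WT (-0.41 ± 0.10, adjusted p = 0.0171). The groups were apart in both, for Sdhc only just, as KO4 and WT4 had nearly the same level. Sdha, the flavoprotein that oxidises succinate, had 46.5, 41.4, 43.0 and 53.7 FPKM in the KO-labelled libraries and 62.3, 65.5, 55.8 and 51.3 FPKM in WT (-0.35 ± 0.11, adjusted p = 0.0486), with KO4 above WT4; its promoter holds 3 of the NRF1 matches shown and that of Sdhd 1. Sdhb, the iron-sulfur subunit that binds to it, had 26.5, 26.5, 28.7 and 35.3 FPKM in the KO-labelled libraries and 32.1, 34.96, 31.6 and 27.3 FPKM in WT (-0.11 ± 0.12, adjusted p = 0.508). The 95% interval of that difference ran from -0.37 to 0.16.

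Complex III, the cytochrome bc1 complex, hands electrons to cytochrome c. Its small supernumerary subunits made up its 5 falls. Uqcrq had 27.7, 17.9, 14.0 and 21.4 FPKM in KO1 to KO4, against 46.5, 53.1, 31.0 and 33.2 FPKM in WT1 to WT4 (-1.004 ± 0.24, adjusted p = 0.0140). Uqcrh, the hinge protein beside cytochrome c1, had 35.6, 38.7, 36.1 and 36.4 FPKM in the KO-labelled libraries and 51.7, 49.4, 44.1 and 42.3 FPKM in WT (-0.34 ± 0.09, adjusted p = 0.0180). Neither pair of groups overlaps. Uqcr11 had 40.8, 23.0, 15.1 and 20.5 FPKM in the KO-labelled libraries and 64.9, 80.1, 43.7 and 40.4 FPKM in WT (-1.22 ± 0.32, adjusted p = 0.0205), and KO1 reached the lowest WT value. Uqcr10, the most abundant, had 67.7, 44.5, 49.3 and 62.5 FPKM in the KO-labelled libraries and 82.9, 95.5, 82.9 and 67.6 FPKM in WT (-0.56 ± 0.16, adjusted p = 0.0279), with the same overlap. Uqcrb also fell (-0.74). The scaffold subunits Uqcrc1 and Uqcrc2 and the Rieske iron-sulfur protein gene Uqcrfs1, which are larger, had -0.08, -0.31 and -0.35 with no call.

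**Figure D2:**
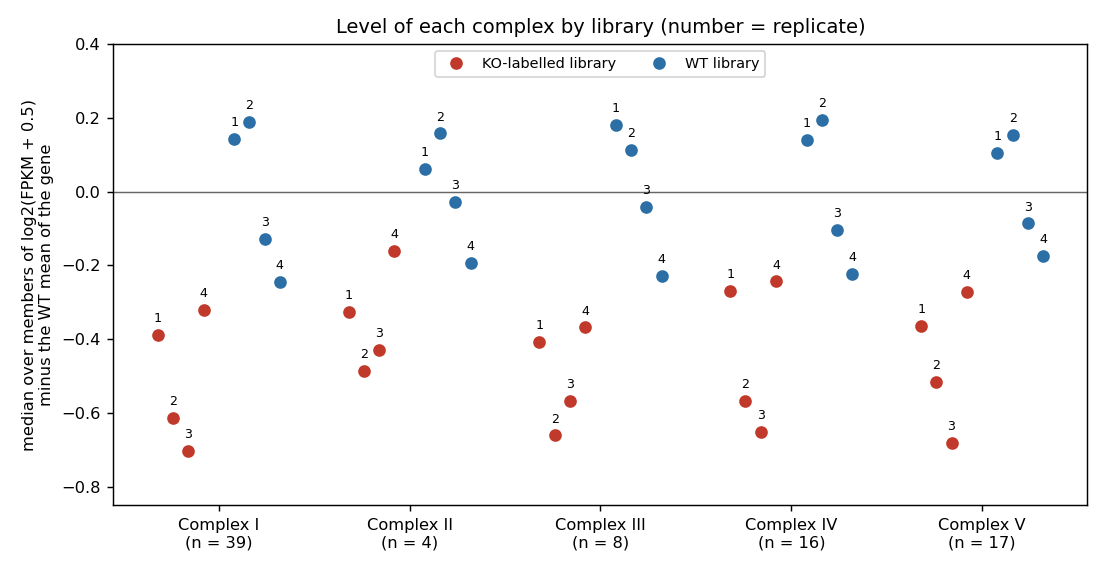
Median over the members of each complex of log2(FPKM + 0.5) minus the gene's WT mean, one point a library, KO-labelled left and WT right, numbered by replicate. KO2 and KO3 are the lowest in every complex. By this median the 2 groups overlap only in complex II, where KO4 (-0.16) lies above WT4 (-0.19). Summed FPKM overlap in complex IV alone, at 683 to 950 in KO-labelled libraries and 902 to 1364 in WT.

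Complex IV, cytochrome c oxidase, had 6 falls among its 16 members. Among the 10 subunits made in all tissues 4 fell. Cox5a, which lies on the matrix side, had 10.4, 9.98, 9.90 and 12.2 FPKM in KO1 to KO4, against 19.6, 20.03, 16.7 and 16.2 FPKM in WT1 to WT4. Its groups are well apart, and its adjusted p was the lowest of the members (-0.74 ± 0.10, adjusted p = 0.00109). Cox7a2 had 41.3, 48.5, 47.3 and 53.5 FPKM in the KO-labelled libraries and 74.9, 72.9, 65.4 and 57.3 FPKM in WT, also apart (-0.50 ± 0.12, adjusted p = 0.0126). The others were Cox6b1 (-0.57) and Cox6c (-0.40). Cox8a was the most abundant member of all, with 277, 176, 157 and 270.1 FPKM in the KO-labelled libraries and 305, 402, 228 and 202 FPKM in WT. Its groups overlap widely, KO1 and KO4 lying above WT3 and WT4 (-0.36 ± 0.27, adjusted p = 0.332). Cox4i1 had 116, 96.5, 86.6 and 118 FPKM in the KO-labelled libraries and 141, 163, 126 and 115 FPKM in WT (-0.38 ± 0.14, adjusted p = 0.0734). Cox6a1 had 191, 161, 150.2 and 209 FPKM in the KO-labelled libraries and 259, 299, 213 and 197 FPKM in WT (-0.44 ± 0.16, adjusted p = 0.0745). In both KO4 reached past WT4. Cox5b (-0.67), Cox7b (-0.16) and Cox7c (-0.16) did not pass either, nor did Cox7a2l, a factor of respiratory supercomplexes (-0.06 ± 0.08, adjusted p = 0.630).

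Several complex IV subunits have a second gene with a narrower range of tissues. Cox8b, the isoform of mouse heart, skeletal muscle and brown fat, had 4.67, 2.15, 2.06 and 4.49 FPKM in KO1 to KO4, against 20.4, 20.4, 17.3 and 9.38 FPKM in WT1 to WT4. Its mean in KO-labelled fat was 0.198 of that in WT (adjusted p = 0.00164), and even WT4, the lowest WT library, was above every KO-labelled one. Cox4i2, an isoform known from lung and induced by low oxygen, had 3.01, 2.49, 2.57 and 3.49 FPKM in the KO-labelled libraries and 5.43, 4.34, 5.59 and 3.92 FPKM in WT (-0.65 ± 0.14, adjusted p = 0.00825). The muscle isoform Cox6a2 had 0.404, 0.240, 0.546 and 0.238 FPKM in the KO-labelled libraries and 0.865, 0.491, 0.321 and 1.495 FPKM in WT. Cox7a1, also of muscle, had 2.37, 2.14, 0.772 and 1.96 FPKM in the KO-labelled libraries and 2.42, 3.28, 3.02 and 1.44 FPKM in WT. Both overlap and have no call, and the testis isoform Cox6b2 had 0.10 on the log2 scale. Ndufa4, first described with complex I and since placed in complex IV, had 47.5, 39.6, 39.6 and 49.1 FPKM in the KO-labelled libraries and 73.1, 76.0, 64.0 and 55.5 FPKM in WT (-0.60 ± 0.13, adjusted p = 0.00843). Its hypoxia-induced paralogue Ndufa4l2 had 7.24, 6.22, 4.22 and 5.68 FPKM in the KO-labelled libraries and 12.2, 13.04, 11.95 and 9.32 FPKM in WT, again with no overlap (-0.95 ± 0.16, adjusted p = 0.00314).

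The 2 paralogues of a pair were also set against each other within each library, for 5 pairs. Percentages are ratios of FPKM and do not depend on how libraries are scaled, whereas the tested log2 ratios hold the 0.5 FPKM added to each gene, which draws the ratios of low genes together. Cox8b stood at 1.68%, 1.22%, 1.31% and 1.66% of Cox8a in KO1 to KO4, against 6.68%, 5.08%, 7.59% and 4.64% in WT1 to WT4, a difference of -1.83 in the log2 ratio (-2.01 with nothing added). Ndufa4l2 stood at 15.2%, 15.7%, 10.7% and 11.6% of Ndufa4 in the KO-labelled libraries and at 16.7%, 17.2%, 18.7% and 16.8% in WT, a difference of -0.35 (-0.40 with nothing added). In both pairs every KO-labelled ratio was below every WT ratio, which gives p = 0.0286 by an exact two-sided permutation test, the smallest that 4 against 4 allows, and 0.0714 after adjustment over the 5 pairs, so neither passed. The log2 ratio differed by -0.26 for Cox4i2 to Cox4i1 (exact permutation p = 0.171), by -0.09 for Cox6a2 to Cox6a1 (exact permutation p = 0.800) and by 0.08 for Cox7a1 to Cox7a2 (exact permutation p = 0.8286), with adjusted values of 0.286, 0.8286 and 0.8286. With nothing added these were -0.35, -0.57 and -0.039, again with no call. The last 2 differences change sign under other settings.

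**Figure D3:**
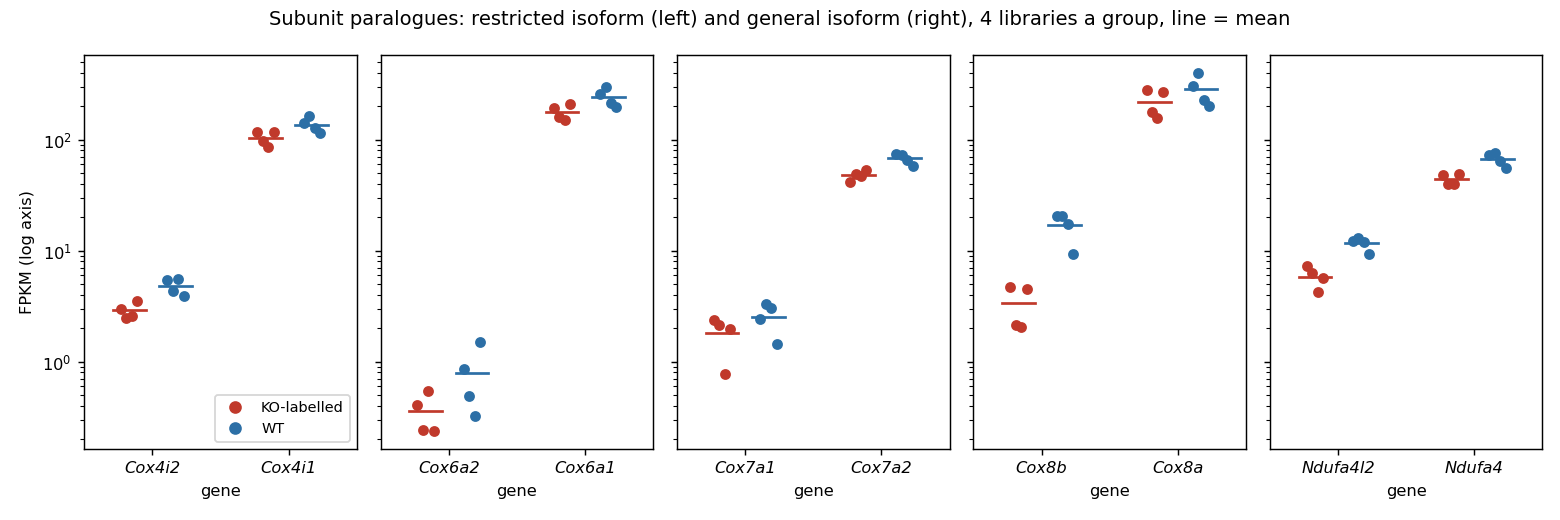
FPKM on a log axis of the restricted isoform (left in each panel) and its general paralogue (right), with 4 libraries a group as points and the mean as a line, KO-labelled left of WT. Cox8b is set apart from WT by far more than Cox8a, whose groups overlap (157 to 277 FPKM in KO-labelled libraries, 202 to 402 FPKM in WT).

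Complex V joins a catalytic head and a membrane rotor through a central and a peripheral stalk. Of the 5 genes of F1, the head with its central stalk, 4 fell. Atp5d, its delta subunit, had 43.3, 36.2, 31.9 and 34.5 FPKM in KO1 to KO4, against 65.6, 68.2, 54.5 and 51.4 FPKM in WT1 to WT4 (-0.71 ± 0.13, adjusted p = 0.00445). Atp5a1, its alpha subunit, had 117, 114, 109.7 and 132 FPKM in the KO-labelled libraries and 168, 177, 162 and 146 FPKM in WT (-0.46 ± 0.10, adjusted p = 0.00923). Both sets of values are apart. The catalytic beta subunit Atp5b, the most abundant member of the complex, had 137, 128, 131 and 175 FPKM in the KO-labelled libraries and 194, 191, 180.5 and 144 FPKM in WT, where KO4 lay above WT4 (-0.31 ± 0.14, adjusted p = 0.117). Of the peripheral stalk, which holds the head still, 3 of 4 fell. Atp5f1, its b subunit, had 21.3, 20.4, 18.8 and 21.2 FPKM in the KO-labelled libraries and 32.5, 35.3, 30.9 and 28.4 FPKM in WT, with narrow and separate groups (-0.62 ± 0.09, adjusted p = 0.00122). Atp5o, which links stalk and head, and Atp5j had -0.76 and -0.53, and Atp5h -0.24 with no call.

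The rotor ring of subunit c is encoded by a set of genes that give the same mature protein from different precursors. Atp5g3 had 55.4, 46.3, 43.3 and 47.8 FPKM in KO1 to KO4, against 77.1, 84.2, 63.2 and 60.5 FPKM in WT1 to WT4, and fell (-0.55 ± 0.13, adjusted p = 0.0134). Atp5g2 had 33.9, 29.8, 26.1 and 29.6 FPKM in the KO-labelled libraries and 29.1, 31.4, 28.0 and 28.3 FPKM in WT, a difference of 0.03 with a 95% interval from -0.18 to 0.24. Atp5g1 had -0.15 with no call, and the differences among these genes were not tested. The promoters of Atp5g3 and Atp5g2 both hold NRF1 letters. Atp5g2 has 2 near-identical copies in the genome, so reads could have been shared with them. Among membrane subunits Atp5l (-0.50) and Atp5j2 (-0.44) fell and Atp5k (-0.89) and Atp5mpl (-0.09) did not pass, and Atp5s, a coupling factor outside the core enzyme, had 0.10.

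Lists of genes that work with the subunits were read beside them. Of 47 factors that assemble the complexes 19 fell and 0 rose (median -0.36), beside 18.6% and 11.7% of all genes. The falls were led by Cmc2 (-0.99 ± 0.09, adjusted p = 0.000146) and the copper chaperone gene Cox19 (-0.81 ± 0.10, adjusted p = 0.000681), both of complex IV assembly. When libraries were scaled to an equal sum 10 of the 47 fell and 2 rose, beside 8.26% and 29.3% of all genes. Without WT1 and WT2 8 fell, beside 7.19% of all genes. Of 13 partners outside the name rule, among them cytochrome c and the ADP carriers, 7 fell and 0 rose (median -0.48), led by the supercomplex factors Higd1a (-1.44 ± 0.21, adjusted p = 0.00172) and Higd2a (-1.07 ± 0.17, adjusted p = 0.00224). With equal sums 5 of these 13 fell and 0 rose, and 3 fell without WT1 and WT2. Atp5mpl is on this list too. Of the 13 subunits encoded by mitochondrial DNA 9 fell and 0 rose (median -0.84), led by mt-Cytb of complex III (-1.27 ± 0.21, adjusted p = 0.00268) and mt-Nd2 of complex I (-1.21 ± 0.22, adjusted p = 0.00418). That count rests on few libraries, being 5 without KO1, KO3, WT1, WT2 or WT3, 6 without KO2 and 13 without KO4, and 5 with equal sums, 4 with a replicate block, 2 without WT1 and WT2 and 0 without KO1, WT1 and WT2 (median then -0.62). Of 20 other mitochondrial membrane and matrix genes 9 fell and 0 rose (median -0.32), led by prohibitin, Phb (-0.82 ± 0.11, adjusted p = 0.000912), and the import channel gene Timm23 (-1.14 ± 0.19, adjusted p = 0.0029). With equal sums 5 of them fell, 1 rose and the median was -0.05; 5 fell without KO3, WT1 or WT2, 14 without KO4, and 2 without KO1, WT1 and WT2.

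Of 15 regulators of mitochondrial biogenesis tested, 0 fell and 2 rose, beside 11.7% of all genes that rose. Their median was 0.02, from -0.44 to 0.54, and 10 lay above 0. With equal sums 6 rose (median 0.29), beside 29.3% of all genes and their median of 0.24, so both counts lay near those of all genes. The coactivator gene Ppargc1a, in human and mouse known to switch on these subunits, had 0.620, 0.947, 0.883 and 0.913 FPKM in KO1 to KO4, against 0.440, 0.532, 0.463 and 0.253 FPKM in WT1 to WT4 (0.54 ± 0.16, adjusted p = 0.0306). Tfam, which packages and transcribes mitochondrial DNA, had 4.31, 4.53, 4.47 and 4.596 FPKM in the KO-labelled libraries and 3.38, 3.71, 4.10 and 2.91 FPKM in WT (0.31 ± 0.10, adjusted p = 0.0378). Neither set of values overlaps, though both calls were lost when any of KO2, KO3, KO4, WT1 or WT4 was left out. Ppargc1a is at a low level and passed the filter of 0.5 FPKM only through its KO-labelled values. At a mean of at least 1 FPKM it was not tested, and of 13 regulators 1 fell and 1 rose. The summed level of this list was 70.3 to 73.1 FPKM in KO-labelled fat and 69.5 to 73.8 FPKM in WT.

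**Figure D4:**
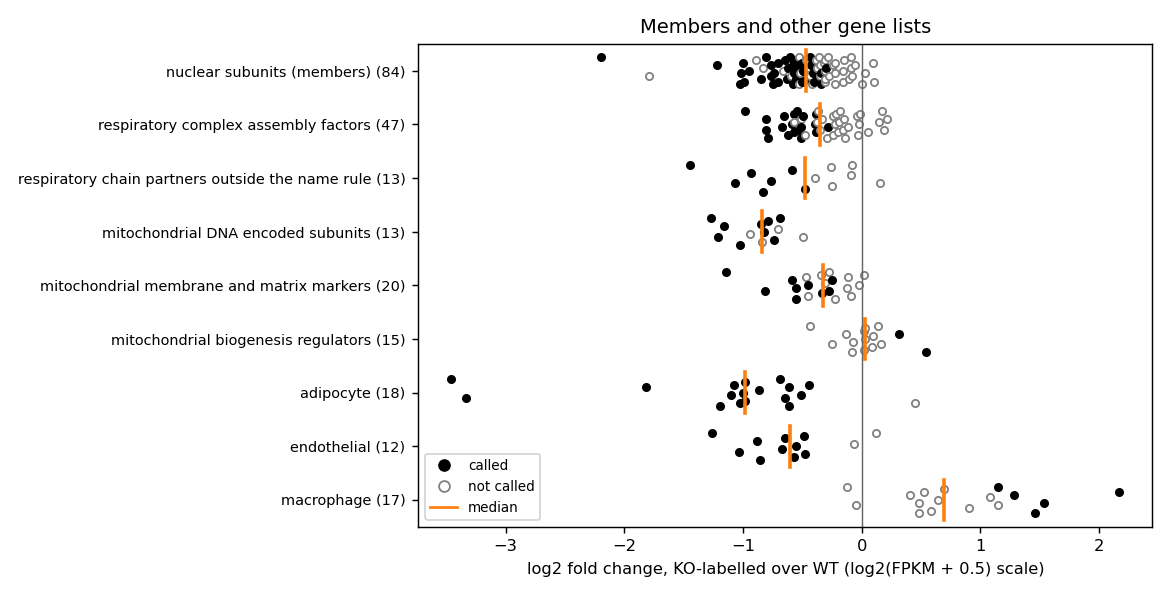
Log2 fold change (KO-labelled over WT) of the members and of the genes on other lists, 1 point a gene, filled where the test was passed, with the median of each list as a bar and the number tested in brackets. The subunit, assembly factor and mitochondrial lists lie left of 0 (medians -0.32 to -0.84), and the biogenesis regulators lie at 0.02.

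Markers of cell types moved with these results, and their part in them was not tested. All 18 adipocyte markers were detected, and 17 fell, led by Lep (-3.34) and Adrb3 (-3.46), with a median of -0.99, further from 0 than the members' median; 12 fell with equal sums, 8 without WT1 and WT2 and 4 without KO1, WT1 and WT2. Their summed level was 4650 to 6337 FPKM in KO-labelled fat and 7466 to 12356 FPKM in WT, highest in KO4 and lowest in WT4 within the groups. Those are the libraries in which member medians also came closest, at -0.30 in KO4 and -0.21 in WT4, against -0.36 to -0.65 in KO1 to KO3 and -0.10 to 0.17 in WT1 to WT3. By summed FPKM, however, members were highest in KO1 within the KO-labelled group (2856, against 2811 in KO4). Adipocyte markers summed to 4914 FPKM in KO1. Of 17 macrophage markers 5 rose, led by Fcgr1 (2.17) and Aif1 (1.54), and 0 fell (summed 825 to 1900 FPKM, against 613 to 1704 FPKM in WT, where WT4 was the highest). Without WT4 13 of these rose, without KO4 8, without both 15 and with equal sums 9, against 3 without any one of the other 6 libraries and 2 without WT1 and WT2. Of 12 endothelial markers 10 fell, led by Robo4 (-0.85) and Egfl7 (-1.26) (6 with equal sums), with a summed level of 193 to 228 FPKM in KO-labelled fat and 286 to 397 FPKM in WT. Of 8 fibroblast markers 3 fell, led by Cd34 (-0.39) and Col3a1 (-0.97), 0 rose and 2 lay above 0 with no call. With equal sums 0 fell and 1 rose, and 1 fell without KO2, KO3 or KO4. Col3a1 stood at 317 FPKM in WT4, against 129 to 152 FPKM in WT1 to WT3, and without WT4 3 markers fell and 1 rose.

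Traces of other tissues differed between libraries. Liver transcripts summed to 7.29 to 19.96 FPKM in KO-labelled fat and 19.6 to 478 FPKM in WT, highest in WT2 and WT1, and 4 of 7 fell, led by Ttr (-3.13) and Apoa2 (-3.51). That count was 0 without KO3, KO4 or WT1, 1 without KO2 and 6 without WT4. Ttr and Ahsg averaged under 0.5 FPKM in KO-labelled fat, so they passed the filter only through WT. Epididymal transcripts reached 220.2 FPKM in KO1 and 64.3 FPKM in WT2, mostly Crisp1 in KO1 and Lcn5 in WT2, and were at most 8.74 FPKM in the other libraries. None of the 7 T and B cell markers reached the level for testing, but the 4 T cell genes among them, Cd4, Cd3g, Cd3e and Cd8a, were higher in every KO-labelled library than in any WT library. Cd4 had 1.04, 0.931, 0.901 and 0.711 FPKM in KO1 to KO4, against 0.0681, 0.0518, 0.108 and 0.141 FPKM in WT1 to WT4, and with no filter on low values limma called 4 of the 7 higher. Of the 6 skeletal muscle markers 2 were tested and 1, Acta1, fell (-1.28), while Ckm, which defines skeletal muscle, averaged 0.0068 FPKM over all libraries. Of the heart markers Tnni3 alone was tested (0.35, adjusted p = 0.215), and Myh7 averaged 0.00199 FPKM. Of 9 brown or beige fat markers 4 were tested, of which Pdk4 (2.05) and Ppargc1a rose, Cidea (-1.19) fell and Prdm16 was not called (-0.25). Cidea is on the adipocyte list too. It passed the filter only through WT (mean 1.41 FPKM, against 0.311 FPKM in KO-labelled fat), and Ppargc1a only through the KO-labelled group. Dio2, too low to be tested, averaged 0.0386 FPKM in KO-labelled fat and 0.217 FPKM in WT, with no overlap. Ucp1, which defines brown fat, was listed at 0 in KO2, KO3 and KO4 and at 0.0629 FPKM in KO1, and in WT at 0.0255 FPKM in WT2 and at 0 in the rest.

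Member transcripts are short, with a median of 787 bases, against 2951 bases over 12296 protein-coding genes tested, and short transcripts differed between libraries of the same group. In KO1 they stood above KO2 to KO4, by a median log2 difference of 0.62 for protein-coding genes of at most 400 bases and of -0.06 for those over 4000 bases. Members shared this, with a median of 0.19 and 59 of 84 above 0. WT1 and WT2 stood above WT3 and WT4, by 0.29 over members, with 79 of 84 above 0. In every length class this WT difference was larger in members than in all protein-coding genes. From 601 to 800 bases the medians were 0.34 and 0.20, and from 1001 to 2000 bases 0.22 and 0.10. Across members, Spearman's rho with length was -0.46 for the KO1 difference, -0.21 for the WT difference and 0.26 for the fold change (n = 84 genes that share their libraries, given as a description). Members of at most 600 bases, 22 in all, had 10 falls and a median of -0.50, and the 62 longer ones had 34 falls and a median of -0.44. Beside all protein-coding genes of the same length, from 601 to 800 bases, where the median was -0.27, the 20 members had -0.54. Removing the trend with length within each library left 45 falls, 0 rises and a median of -0.44, where 19.2% of all genes fell and 11.8% rose. The extreme case, chosen after its values were seen, is Ndufs5, with 22.1, 3.23, 2.16 and 3.76 FPKM in KO1 to KO4 and 35.03, 59.0, 7.36 and 7.85 FPKM in WT1 to WT4. It is high in KO1, WT1 and WT2, and its fold change of -1.80 has an error of 0.85 (adjusted p = 0.140).

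**Figure D5:**
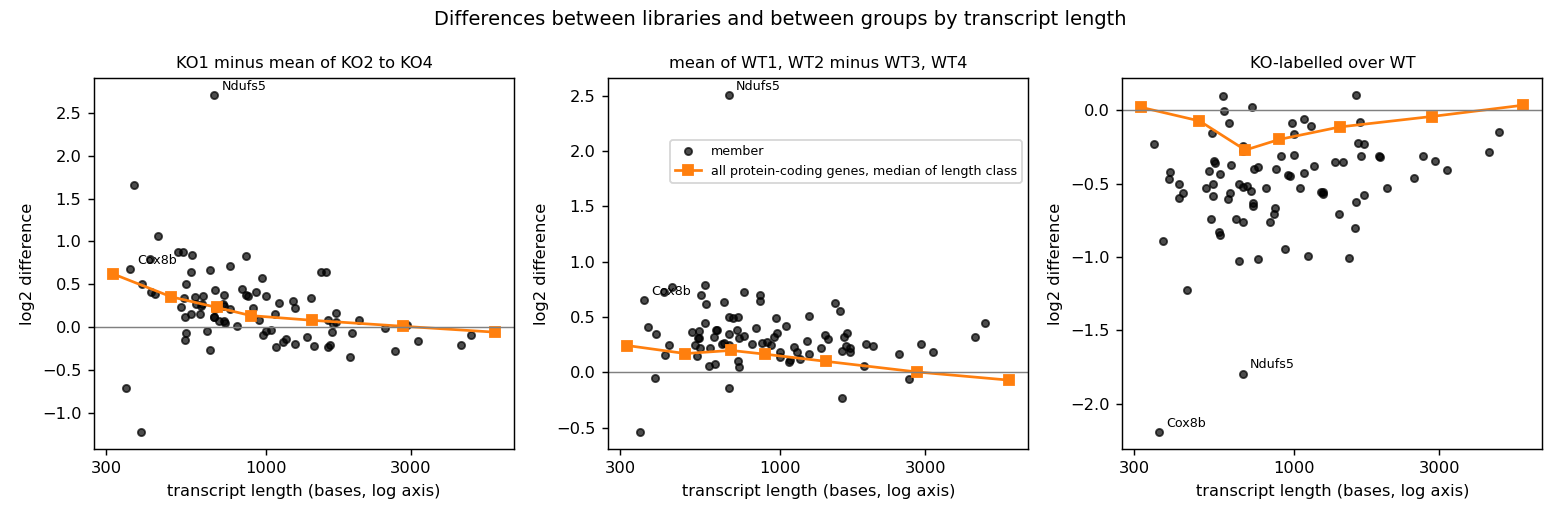
Log2 difference against transcript length (bases, log axis) for KO1 minus the mean of KO2 to KO4, for WT1 and WT2 minus WT3 and WT4, and for KO-labelled over WT; dots are members and squares the medians of all protein-coding genes by length class. Short transcripts are higher in KO1 (0.62 in the shortest class), and 74 of the 84 members lie below the median of their length class in the right panel.

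How many members fell depended on scaling and on the WT libraries. Listed genes held 62.6% to 66.1% of the mapped fragments behind the FPKM values in KO-labelled libraries and 74.1% to 78.7% in WT. Scaled to an equal sum in each library, the median of all genes moved to 0.24 and that of members to -0.23, a distance of -0.47, against -0.44 on the deposited scale. Then 16 members fell and 2 rose (Atp5g2 and Cox7a2l), while 8.26% of all genes fell and 29.3% rose, against the 18.6% and 11.7% on the deposited scale. With the reads in listed genes as the denominator, 16 fell and 1 rose (Atp5g2), beside 8.8% and 29.2% of all genes. By voom on the recovered reads 17 fell and 1 rose, beside 8.71% and 31% of all genes, and with quantile normalization 24 fell and 1 rose, beside 14.6% and 12.8%. Without WT1 and WT2, the libraries with the most liver transcripts, 5 members fell (Atp5f1, Cox5a, Cox8b, Ndufa4l2 and Ndufb8) and 0 rose, with a median of -0.33. The falls were then 5.95% of members, below the 7.19% of all genes that fell, and 5.01% of all genes rose. Without KO1, WT1 and WT2, 16 fell (19.0% of members, against 5.26% of all genes) and 0 rose (3.94% of all genes), with a median of -0.35. The calls of Cox5a, Atp5f1, Cox8b and Ndufa4l2 held in each of the 24 alternatives run.

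Some values rest on reads that other genes can share. Of the members, 13 have a near-identical copy elsewhere in the genome (at least 95% identical over at least 50% of the transcript), among them Atp5l with 9, Uqcrb with 3 and Atp5h with 3, and 5 of these fell. Exons of 25 overlap a listed gene on the opposite strand, among them Cox5a, Atp5f1, Ndufa4l2 and Atp5d, and 15 of these fell, so that of the 4 calls above Cox8b alone has neither a copy nor an overlap. Without strand in the counting, reads of such neighbours cannot be told apart. Positions in GENCODE M21 (GRCm38) are chromosome 9, 57521274 to 57532426 for Cox5a (ENSMUSG00000000088), chromosome 3, 105942698 to 105960099 for Atp5f1 (ENSMUSG00000000563), chromosome 7, 140898945 to 140900446 for Cox8b (ENSMUSG00000025488) and chromosome 10, 127514967 to 127517154 for Ndufa4l2 (ENSMUSG00000040280). Members lie on 19 chromosomes. Their median coefficient of variation was 15.3% in KO-labelled libraries and 14.2% in WT, against 13.5% and 13.9% for all genes tested.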

How the data were processed

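TRIzol-extracted poly(A) RNA was made into libraries with random hexamer priming, per the labels' protocols, with no step that marks strand. The submitters' processing notes name HISAT2 2.0.5, featureCounts and build mm10. Annotation release and strand setting are not given in the sources used here. A single FPKM table was deposited by the authors, with 28295 genes and 8 libraries. GENCODE M21 (GRCm38) held 28255 of its IDs (99.9%) and gave 1-based coordinates.

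Dividing low FPKM by the step that 1 read makes gave depth: 97.9% of results from 0.5 to 200 came within 0.02 of whole. KO-labelled and WT libraries (4 each) were compared in limma 3.58.1 under R 4.3.3 on log2(FPKM + 0.5), two-sided, with trend and robust moderation and no covariate. Benjamini-Hochberg adjustment covered all 14400 genes averaging at least 0.5 FPKM, and calls needed an adjusted p under 0.05. This scale understates changes of low genes. Errors beside fold changes are standard errors. Isoform ratios and Cul3 had exact two-sided permutation tests. The limma step was tested on simulated data. Of 100 genes changed by 1 on the log2 scale 74% were called, and of 100 changed by 0.5 21% were. Of its calls 4.04% were false. No other genes differed in that simulation, unlike in these libraries. BLAST 2.17.0 found near-identical copies. Other software was matplotlib 3.10.9, scipy 1.17.1, pandas 2.3.3, numpy 2.4.6 and Python 3.11.15.

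The members and gene lists were chosen with earlier results of these data known. Named library by library were, in each complex (complex I by core and accessory subunits), the 3 members with the smallest adjusted p, the most abundant, all of complex II, any that rose and both genes of each isoform pair. From each other list the 2 genes with the smallest adjusted p were named, mostly by fold change. Other members given library by library, Atp5g2 and Atp5g3 among them, were chosen after their values were seen. The values of 1 member, which stays in all counts and medians, and of some markers are not reported here.

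Alternatives were other pseudocounts, filters, scalings and limma settings, a replicate block, voom on recovered reads and leaving out libraries. Taking listed reads as the denominator, removing the trend with transcript length, leaving out KO1, WT1 and WT2 together, and isoform ratios with no pseudocount were added after the data were seen. Same-numbered libraries did not deviate together (correlations of -0.06, -0.13, 0.17 and -0.32), so the numbers were not taken to pair them.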

Additional observations from a re-analysis of the deposited data

Results flagged for a closer look

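In 168 groups of 4 libraries, 4 had a library far from the other 3 by Dixon's test at the 95% level. Chance alone gives about 1 such group in 20. Ndufs5, a complex I accessory subunit, stood at 22.1 FPKM in KO1, against 2.16 to 3.76 FPKM in KO2 to KO4. Uqcrfs1, the Rieske protein of complex III, stood at 65.2 FPKM in KO4, against 51.2 to 52.7 FPKM in KO1 to KO3. Uqcrb, of complex III, stood at 43.3 FPKM in WT1, against 34.4 to 35.3 FPKM in WT2 to WT4. Atp5c1, the gamma subunit of ATP synthase, stood at 68.5 FPKM in WT4, against 80.2 to 81.5 FPKM in WT1 to WT3.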

How the results depend on the processing

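The count of members that fell, 44, stayed within 1.5 times with other pseudocounts or filters, median-of-ratios scaling, limma without trend, array weights or the length trend removed. It was 16 with equal sums per library, 16 with listed reads as the denominator, 17 by voom and 24 with quantile normalization, with 2, 1, 1 and 1 members higher, 4226, 4202, 4457 and 1839 genes higher, and 1190, 1267, 1253 and 2097 lower. It was 5 without WT1 and WT2 (722 genes higher, 1036 lower) and 16 without KO1, WT1 and WT2 (568 higher, 758 lower). Leaving out 1 library gave 22 to 52 members lower, 0 higher, and 1089 to 1937 genes higher and 1858 to 2803 lower, with 22 members lower without WT1, 26 without KO3, 27 without KO2 and 29 without WT2. With a replicate block 32 members fell and 30 of the 44 kept their call, while 1113 genes were higher and 1995 lower, and the numbers showed no pairing. Without KO1, KO4 or WT4, 49, 45 and 52 members fell. Fewer libraries leave the test less power, and the cause of these shifts was not tested.

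Cul3 had 0.37 (limma adjusted p = 0.0477) with equal sums, 0.34 (0.0396) with listed reads and 0.35 (0.0297) by voom, and 0.03 to 0.15 when 1 library was left out. The log2 ratio of Cox6a2 to Cox6a1 was 0.070 with a pseudocount of 1, 0.39 without WT4 and KO4, and -0.30 to 0.24 with 1 library left out. That of Cox7a1 to Cox7a2 was -0.0081 with a pseudocount of 0.1, -0.039 with none, -0.038 without WT4 and KO4, -0.073 without KO1, WT1 and WT2, and -0.11 to 0.35 with 1 library left out.

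The reported members that changed sign had no call on the deposited scale. With equal sums they were Ndufa6 0.27, Ndufv2 0.042, Ndufs7 0.19, Sdhb 0.16, Uqcrc1 0.19, Cox7b 0.11, Cox7c 0.12, Cox7a2l 0.22, Atp5g1 0.11, Atp5mpl 0.18, Atp5h 0.030. With listed reads they were Ndufa6 0.25, Ndufv2 0.017, Ndufs7 0.16, Sdhb 0.14, Uqcrc1 0.17, Cox7b 0.087, Cox7c 0.093, Cox7a2l 0.19, Atp5g1 0.079, Atp5mpl 0.16, Atp5h 0.0058. By voom they were Ndufa6 0.26, Ndufv2 0.021, Ndufs7 0.16, Sdhb 0.14, Uqcrc1 0.17, Cox7b 0.094, Cox7c 0.098, Cox7a2l 0.20, Atp5g1 0.084, Atp5mpl 0.17, Atp5h 0.0096. With quantile normalization they were Ndufa6 0.17, Ndufs7 0.10, Sdhb 0.090, Uqcrc1 0.12, Cox7b 0.034, Cox7c 0.069, Cox7a2l 0.18, Atp5mpl 0.077. Other changes were Ndufa6 0.045, Cox7a2l 0.032 with the length trend removed, Ndufa6 0.011 with median-of-ratios scaling, Atp5g2 -0.0050 with array weights, Ndufa6 0.11, Ndufs7 0.091, Uqcrc1 0.042, Atp5g1 0.076, Atp5s -0.011 without WT1 and WT2, and Ndufa6 0.041, Ndufs7 0.11, Sdhb 0.028, Uqcrc1 0.055, Atp5g1 0.098 without KO1, WT1 and WT2. With 1 library left out, Ndufa6 ran from -0.073 to 0.066, Ndufs7 from -0.19 to 0.012 and Atp5g2 from -0.035 to 0.089. Ndufs6b rests on as few as 2 recovered reads in a library, which limits its value.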
